A study of Mus musculus with 23 samples.

Results

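The 9 genes Stab2, Icos, Inpp4b, Il1rl1, Gata3, Ccr9, Skap1, Rnf128 and Id2 are described here, of the 32285 genes in the count matrices. They were chosen by their measured values, since several were higher in untransplanted Jarid2 KO mice than in Controls, so that contrast is given for them as values without a test. The cells were c-Kit+ Sca1+ Lineage- (KSL) cells sorted from mouse bone marrow, the gate that holds stem cells and multipotent progenitors, and they were profiled by droplet single-cell RNA sequencing that reads transcript 3′ ends. The series compares loss of Jarid2, an accessory subunit of the histone methyltransferase complex PRC2, with loss of Ezh2, its catalytic subunit. All mice carried Mx1-Cre, an interferon-inducible recombinase that is active in blood cells and in other tissues. Jarid2 KO and Ezh2 KO mice carried floxed alleles (Jarid2fl/fl or Ezh2fl/fl), and the labels give no floxed allele for the Controls. The baseline experiment used untransplanted mice 2 months old, with 1 male library (replicate 1) and 1 female library (replicate 2) per genotype (Control, Ezh2 KO, Jarid2 KO), and a panel of 6 antibodies read on the same cells. In the transplant experiment, 500000 donor (CD45.2) marrow cells and 500000 competitor (CD45.1) cells went into lethally irradiated recipients, and donor KSL cells were sorted 18 weeks later, giving 1 Control, 2 Ezh2 KO and 2 Jarid2 KO libraries. The labels do not say whether each library came from 1 mouse or a pool, so a p-value measures the spread between these libraries. A further 6 H3K27me3 CUT&Tag samples were not analysed here.

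Innate lymphoid cells are tissue lymphocytes without rearranged antigen receptors. Id2, which blocks the E-protein transcription factors, and the transcription factor Gata3 are needed for their development, and the type that makes type 2 cytokines responds to the alarmin IL-33 through Il1rl1 (ST2) and carries the costimulatory receptor Icos. Of the other genes, Ccr9 is the receptor for the chemokine CCL25 and guides progenitors to the thymus and lymphocytes to the gut. Skap1 is an adaptor in antigen-receptor signalling to integrins, Rnf128 (GRAIL) is a ubiquitin ligase known from unresponsive T cells, Inpp4b is a lipid phosphatase of the phosphoinositide pathway, and Stab2 is a scavenger receptor for hyaluronan known mainly from sinusoidal endothelium.

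After filtering, 73310 of 97066 barcodes were kept, 46839 at baseline and 26471 after transplantation, with 4354 to 9208 cells per library. The median number of unique molecular identifiers (UMIs, counted molecules) per cell was 10751 to 12665 in the baseline libraries and 11760.0 to 17608 in the transplant libraries. The file headers name different counting software versions for the experiments, so levels were compared within an experiment only. Libraries shared at most 0.392% of the barcodes of the smaller library. Ezh2 counts were lower in the transplant Ezh2 KO libraries (38.9 and 47.1 CPM, counts scaled to 1000000 UMIs) than in their Control (184 CPM), and at baseline the difference was small (163 and 148 against 209 and 193 CPM). Jarid2 counts were not lower in the libraries labelled Jarid2 KO (215 and 204 CPM at baseline and 57.2 and 57.4 CPM after transplantation) than in Controls (159 and 150.0 and 38.4 CPM). A 3′ tag outside the deleted exons does not check a deletion, and no source used here names the exons removed. In the transplant Control library 59.5% of cells had Xist UMIs and none from Y genes. The share was 48.3% and 49.9% with Jarid2 KO donors but 0.0163% and 0.0511% with Ezh2 KO donors, so donor sex moved with the Ezh2 KO contrast. Cells with Y-gene UMIs and no Xist made up 18.4% of the Control, 27.4 and 32.2% of the Jarid2 KO and 73.6 and 68.6% of the Ezh2 KO libraries, so the transplant Control and Jarid2 KO libraries held cells of both sexes.

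The genes lie at separate loci. In RefSeq coordinates of GRCm38.p6 they are Stab2 at chr10:86841194-87008038, Icos at chr1:60960773-61000322, Inpp4b at chr8:81342266-82134312, Il1rl1 at chr1:40404864-40465418, Gata3 at chr2:9857078-9887953, Ccr9 at chr9:123767211-123783457, Skap1 at chr11:96464570-96759622, Rnf128 at chrX:139563340-139673145 and Id2 at chr12:25093799-25096092. All are annotated as protein-coding. RefSeq promoter windows, running from 250 bases before to 50 bases after a transcript start, were found for 7 of the 9 genes (8 windows). Their base composition fell into separate kinds. The Stab2, Il1rl1 and Ccr9 windows were CpG-poor, with an observed over expected CpG ratio of 0.099 to 0.214, while those of Gata3, Inpp4b, Rnf128 and Id2 lay between 0.658 and 0.892. The median over all 32534 windows was 0.387.

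The 4 CpG-poor windows are printed, as the ones that set Stab2, Il1rl1 and Ccr9 apart from the other genes in base composition. Capitals mark matches on either strand to AGATAA, a motif of GATA factors, to CANNTG, the E-box bound by the E proteins that Id2 blocks, or to TGTGGT, a motif of RUNX factors. No matches overlapped. Of all windows, 11.2% held AGATAA, 72.3% CANNTG and 16.7% TGTGGT, and a match is a description of the letters only. The sequences are from RefSeq, GRCm38.p6, at chr10:87007893-87008192 (minus strand) for Stab2, chr1:40429320-40429619 and chr1:40439379-40439678 (plus strand) for Il1rl1, and chr9:123766961-123767260 (plus strand) for Ccr9.
Stab2: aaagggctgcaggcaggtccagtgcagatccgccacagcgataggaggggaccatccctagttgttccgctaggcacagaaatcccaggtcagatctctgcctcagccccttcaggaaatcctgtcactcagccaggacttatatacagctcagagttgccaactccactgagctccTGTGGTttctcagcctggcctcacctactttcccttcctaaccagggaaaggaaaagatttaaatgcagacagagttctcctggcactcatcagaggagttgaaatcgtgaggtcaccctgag
Il1rl1 window 1: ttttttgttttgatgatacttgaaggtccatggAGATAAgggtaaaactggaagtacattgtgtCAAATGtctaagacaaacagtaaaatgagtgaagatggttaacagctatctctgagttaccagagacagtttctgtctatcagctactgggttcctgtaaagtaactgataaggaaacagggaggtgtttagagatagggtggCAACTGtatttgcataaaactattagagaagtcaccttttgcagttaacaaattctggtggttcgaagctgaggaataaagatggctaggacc
Il1rl1 window 2: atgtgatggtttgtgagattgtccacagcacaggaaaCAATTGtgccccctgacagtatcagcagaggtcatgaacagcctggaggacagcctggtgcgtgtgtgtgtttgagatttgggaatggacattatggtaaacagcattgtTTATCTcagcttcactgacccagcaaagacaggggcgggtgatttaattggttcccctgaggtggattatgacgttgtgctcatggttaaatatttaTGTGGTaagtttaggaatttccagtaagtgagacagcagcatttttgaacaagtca
Ccr9: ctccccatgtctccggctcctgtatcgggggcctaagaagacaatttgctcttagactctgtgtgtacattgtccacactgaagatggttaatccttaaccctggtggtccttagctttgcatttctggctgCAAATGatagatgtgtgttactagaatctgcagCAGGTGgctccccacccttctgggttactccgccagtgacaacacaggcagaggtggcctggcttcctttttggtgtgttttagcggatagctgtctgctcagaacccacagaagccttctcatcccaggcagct
Both Il1rl1 windows held an AGATAA match, at -217 and, on the opposite strand, at -103 from the transcript start, and the second held a TGTGGT match at -6. The Stab2 window held 1 TGTGGT match at -73 and the Ccr9 window 2 CANNTG matches, at -118 and -85. Neither AGATAA nor TGTGGT was found in the 4 windows of Gata3, Inpp4b, Rnf128 and Id2.

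At baseline, 8 of the 9 genes were higher in both libraries labelled Jarid2 KO than in both Controls. Over all 18196 genes tested, 15.6% were so. Since this contrast chose the genes, nothing is read from that count. Stab2 stood at 1.58 and 1.61 CPM in the male and female Control, 2.2 and 1.77 CPM in Ezh2 KO and 29.2 and 31.7 CPM in Jarid2 KO. Both Jarid2 KO libraries lay far above the other 4, which lay close together. Icos stood at 2.85 and 2.24 CPM in Control, 4.45 and 3.06 CPM in Ezh2 KO and 12.2 and 11.7 CPM in Jarid2 KO, and Il1rl1 at 3.56 and 4.47, 4.36 and 3.04 and 11.6 and 11.2 CPM in the same order. For both genes the Jarid2 KO libraries were the highest, and for Il1rl1 the Control and Ezh2 KO libraries overlapped. Gata3 was highest in Jarid2 KO (26.1 and 27 CPM against 16.9 and 14.9 in Control and 11.6 and 14.3 in Ezh2 KO), as was Inpp4b (123 and 140.0 CPM against 76.3 and 83.5 and 58.1 and 66.4). Skap1 followed the order Control (9.74 and 5.66 CPM), Ezh2 KO (17.2 and 13.8 CPM) and Jarid2 KO (23.6 and 22.5 CPM) without overlap.

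Ccr9, Id2 and Rnf128 did not separate Jarid2 KO from Ezh2 KO. Ccr9 stood at 13.5 and 4.49 CPM in the male and female Control, 34.6 and 13.5 CPM in Ezh2 KO and 28.8 and 19.7 CPM in Jarid2 KO. The male library was the higher in each genotype. Id2 stood at 16 and 10.1, 15.5 and 21.5 and 21.5 and 21.4 CPM, and Rnf128 at 1.89 and 1.16, 2.45 and 1.79 and 1.75 and 2.82 CPM. Rnf128 was the 1 gene whose Jarid2 KO and Control libraries overlapped. The fitted Jarid2 KO change, a description here, ran from 0.64 (Rnf128) and 0.74 (Inpp4b) to 2.26 (Icos) and 4.28 (Stab2) on the log2 scale.

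**Figure D1:**
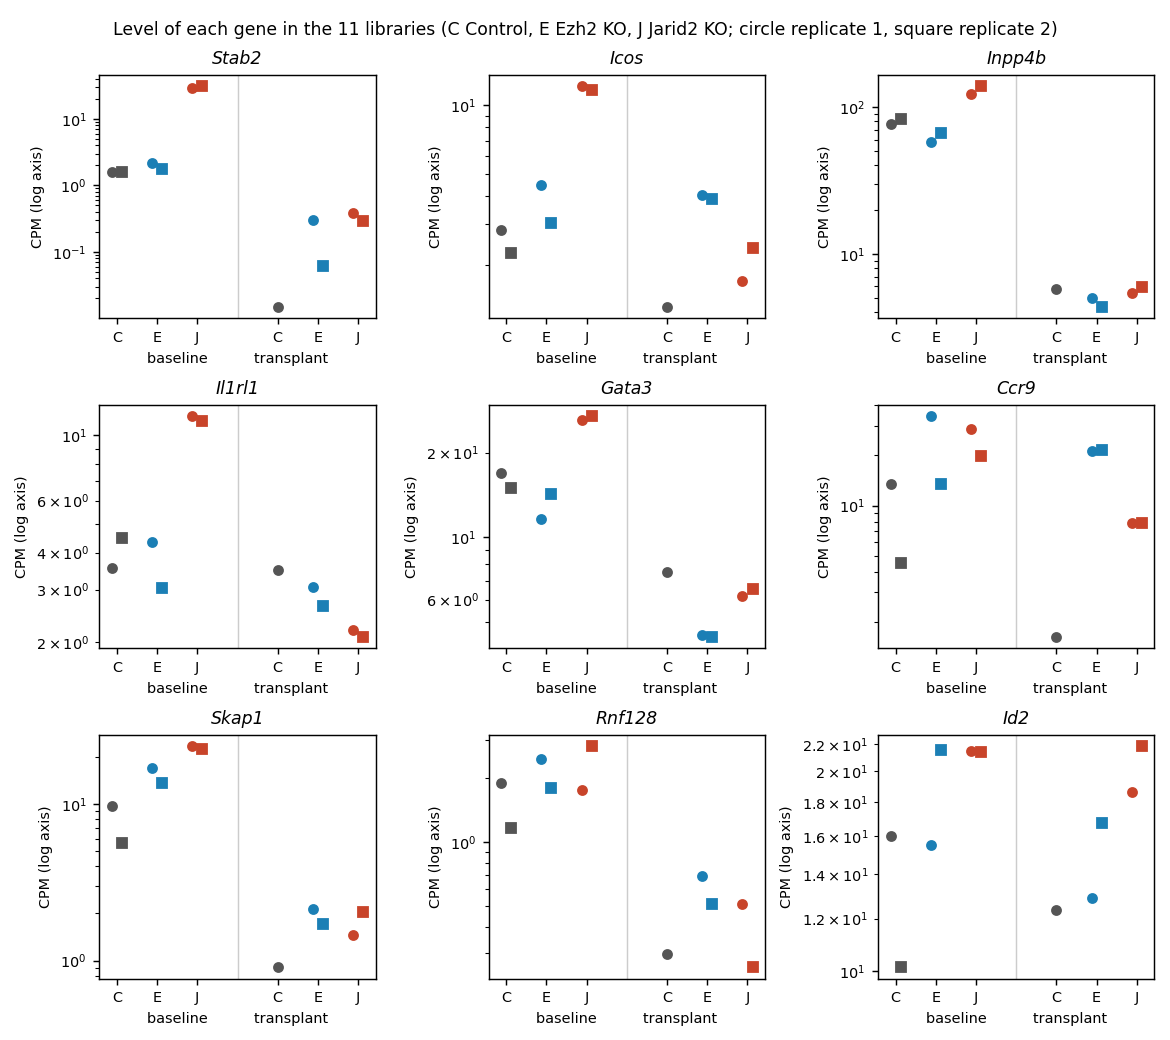
Level of each of the 9 genes in the 11 libraries, as CPM of summed UMIs on a log axis, with baseline at the left and transplant at the right of each panel and each point 1 library. Stab2 stands apart in the 2 baseline Jarid2 KO libraries (29.2 and 31.7 CPM), and in the transplant libraries Ccr9 is lowest in the single Control and highest in Ezh2 KO (21.1 and 21.6 CPM).

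Il1rl1, Icos, Gata3 and Skap1 were often detected in the same cells. A cell with a UMI of at least 2 of these 4 genes is called co-detecting here. Such cells made up 1.86 and 1.2% of the baseline Control libraries (125 and 94 cells), 2.22 and 2.0% of Ezh2 KO (194 and 184 cells) and 4.36 and 4.97% of Jarid2 KO (317 and 350 cells). Both Jarid2 KO shares lay above the others, and their exact 95% binomial intervals, which cover counting error only, did not overlap with those of the other 4 libraries. No test was made because the Jarid2 KO libraries chose the genes, and with 2 libraries a group an exact test cannot go below p = 0.33. Co-detecting cells were shallow: their median UMI count was 4091 to 7267 in the 6 baseline libraries. Thinned to 3000 UMIs per cell, the shares were 0.982 and 0.684% in Control, 1.09 and 0.93% for Ezh2 KO, 2.98 and 3.98% for Jarid2 KO, in the same order of genotypes. Thinning to 5000 UMIs left out 46 to 224 co-detecting cells per baseline library. The shares were then 0.407 and 0.268%, 0.679 and 0.436% and 0.84 and 1.62%, and the interval of the male Jarid2 KO library overlapped with that of the male Ezh2 KO library. After transplantation the unthinned share was 0.827% for the Control, with 1.22 and 0.767% for Ezh2 KO, 0.967 and 1.25% for Jarid2 KO, and the genotypes overlapped. Thinned, both Jarid2 KO libraries lay above the other 3, at 0.528 and 0.598% against 0.272 and 0.237% for Ezh2 KO and 0.295% for the Control at 5000 UMIs and at 0.563 and 0.57% against 0.251 and 0.23% and 0.238% at 3000 UMIs, on 9 to 28 co-detecting cells a library. Their intervals overlapped with those of the Control at both depths, and no test was made.

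Pairs of genes were found together far more often than independent detection would give. Stab2 and Il1rl1 were both detected in 22 and 16 Control cells, where independence gives 0.681 and 0.787, and in 211 and 235 Jarid2 KO cells, where it gives 9.74 and 16.8. Icos and Skap1 were together in 44 and 37 Control cells (6.88 and 3.4 under independence) and in 221 and 242 Jarid2 KO cells (20.0 and 20.7). The excess was present in all 3 genotypes at baseline. It was slight for Inpp4b with Gata3, at 1.21 to 1.5 times the number under independence. Cells of a library share free RNA. As background, Stab2 had a UMI in at most 1.35% and Icos in at most 5.26% of the erythroid cells of a baseline library, which were deeper (median UMIs 25833 to 40920.0, 38 to 193 cells a library). Il1rl1 was found in 51.4 to 66.2% of them, so they do not give its background. After transplantation, UMIs of all of the granule genes Elane, Prtn3 and Ctsg were in 4277 of 4354 Control cells. For Ezh2 KO it was 5273 of 6149 and 4694 of 5867 cells, and for Jarid2 KO 5000 of 5069 and 4990 of 5032. Cells so common give no separate background, so the transplant values carry that limit.

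The cells were then clustered within each experiment without the 9 genes. Gm16271, a noncoding gene that overlaps Stab2, and 1700113H08Rik, a neighbour of Stab2, were not barred from the clustering. At baseline 1 cluster of 808 cells, cluster 15, held most co-detecting cells of Jarid2 KO (78.9% and 78.6%) and 39.7% to 57.6% of those of the other libraries. Its leading genes by fold over the other cells were 1700113H08Rik, Il2ra (the IL-2 receptor alpha chain), Gm16271, Bcl11b (a transcription factor of T cells and type 2 innate lymphoid cells), Cysltr1, Stxbp6, Flrt2, Cxcr6, Tcrg-C4 and Pparg. Of 12 innate lymphoid marker genes, 10 or 11 were found in at least 10% of its cells in each library, among them Il7r (90.9% to 97.7%), Rora (74.3% to 87.6%), Ets1 (63.2% to 85.3%) and Il2ra (47.4% to 72.4%). Of 12 T and NK cell markers, 2 to 5 reached 10%, with the T cell receptor constant gene Trbc2 in 48.2% to 68.8% of cells and the NK cell genes Ncr1 and Klrb1c at 0 in every library. Of 14 sinusoidal endothelial markers, 7 to 13 were at 0 in a library. Emcn, Lyve1, Tie1 and Ptprb were at 0 in all 6 libraries, and Pecam1 was in 15.8% to 25.5% of cells. Its marker counts passed for the T and NK list (4 genes) as well as the innate lymphoid list, and the naming rule gave T and NK-like. None of the 10 leading genes is on the T and NK list and 3 are on the innate lymphoid list. The cluster was therefore left unnamed here, a choice made by hand for this cluster alone. Its cells were shallow, with a median of 3457 to 4408 UMIs.

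Cluster 15 was larger in the libraries labelled Jarid2 KO. It made up 1.1 and 0.561% of the male and female Control, 0.996 and 0.825% of Ezh2 KO and 3.45 and 3.92% of Jarid2 KO cells. The Jarid2 KO shares were the highest and the Control and Ezh2 KO shares overlapped, without a test. The cells lay low in surface CD117 (c-Kit), at a median within-library percentile of 2.0 to 9.1, and high in Sca1, at 96.2 to 99.4. Surface CD135 (Flt3) was also low (13.5 to 27.9) and CD150 was near the middle (40.0 to 58.0).

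**Figure D2:**
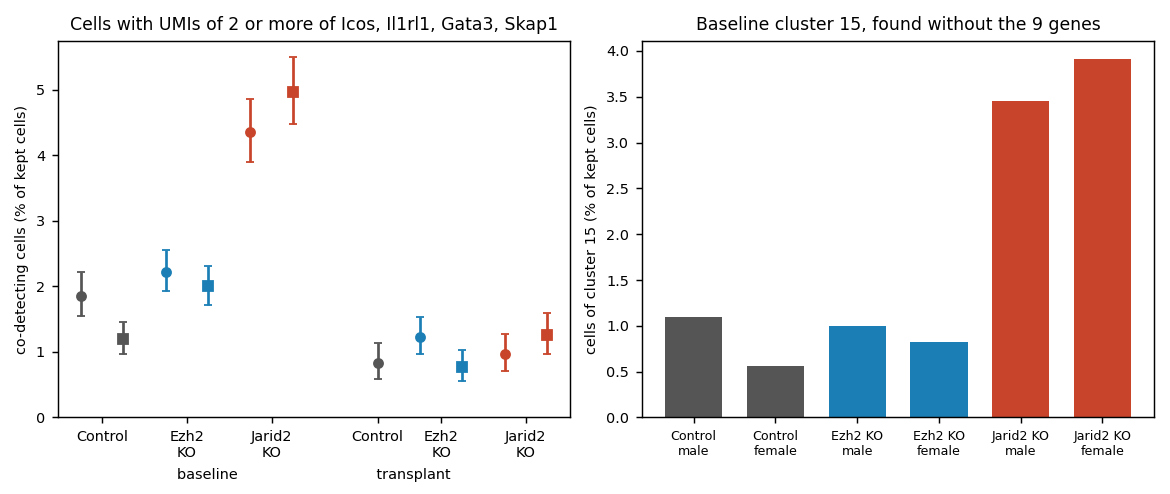
Left, share of kept cells in each of the 11 libraries with UMIs of at least 2 of Icos, Il1rl1, Gata3 and Skap1, with exact 95% binomial intervals (counting error only). Right, share of cells in cluster 15 in the 6 baseline libraries, which is 3.45 and 3.92% in Jarid2 KO and at most 1.1% in the others.

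Within cluster 15, both Jarid2 KO libraries lay above the other 4 for Stab2 and Icos and below them for Rnf128, and for the other 6 genes they did not stand together on one side. Of the 384 genes tested at baseline that had at least 946 UMIs in the cluster, the number of the member with fewest there, 14.3% had both Jarid2 KO libraries above or below the other 4. These values are a description, since the Jarid2 KO libraries chose the genes, and nothing is read from the count. Stab2 stood at 408 and 885 CPM of the cluster's UMIs in Control, 682 and 545 CPM in Ezh2 KO and 2667 and 2389 CPM in Jarid2 KO, and was detected in 33.8 and 40.9%, 40.2 and 47.4% and 89.2 and 94.9% of the cluster's cells. Icos stood at 252 and 409, 568 and 365 and 969 and 763 CPM in the same order. Rnf128 went the other way, at 478 and 415 CPM in Control, 693 and 513 CPM in Ezh2 KO and 129 and 170.4 CPM in Jarid2 KO. The library totals of Rnf128 overlapped while its level within the cluster was lowest in both Jarid2 KO libraries.

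Gata3 stood at 1035 and 1062 CPM in Control, 1112 and 963 CPM in Ezh2 KO and 1205 and 1091 CPM in Jarid2 KO cells of cluster 15. Skap1 stood at 1442 and 1416, 1679 and 1292 and 1737 and 1390.0 CPM, and Ccr9 at 742 and 579.7, 854 and 715 and 814 and 739 CPM. For these genes, and for Il1rl1, Inpp4b and Id2, the Jarid2 KO libraries overlapped with at least 1 other genotype inside the cluster. Over the cells outside cluster 15, 1 of the 9 genes (Stab2, 0.625 and 0.736 CPM in Jarid2 KO against 0.275 and 0.133 in Control) was higher in both Jarid2 KO libraries than in both Controls, compared with 8 over all cells. Over the 18196 genes tested, 15.2% were so outside the cluster, close to the 15.6% over all cells, and a single gene of 9 is near that share. Compared with the Control of the same sex, 8 genes were higher in both sexes over all cells (27.2% of all genes) and 5 outside the cluster (26.8% of all genes): Stab2, Ccr9 (20.3 and 10.3 CPM in the male and female Jarid2 KO against 11.1 and 3.53 in Control), Inpp4b (69 and 78.5 against 61.9 and 75.5), Rnf128 and Il1rl1. This comparison within sex was also added after seeing the data. Outside the cluster Skap1 and Icos were highest in Ezh2 KO, Skap1 at 12.1 and 10.6 CPM against 4.98 and 4.54 in Jarid2 KO and 5.13 and 3.31 in Control, and Icos at 2.73 and 2.16 CPM against 1.82 and 1.79 and 2.04 and 1.56, where over all cells Jarid2 KO was highest. The comparison without cluster 15 was decided on once its cells were known. That cluster was picked by co-detection of Icos, Il1rl1, Gata3 and Skap1, so lower levels of these genes outside it are partly built in.

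**Figure D3:**
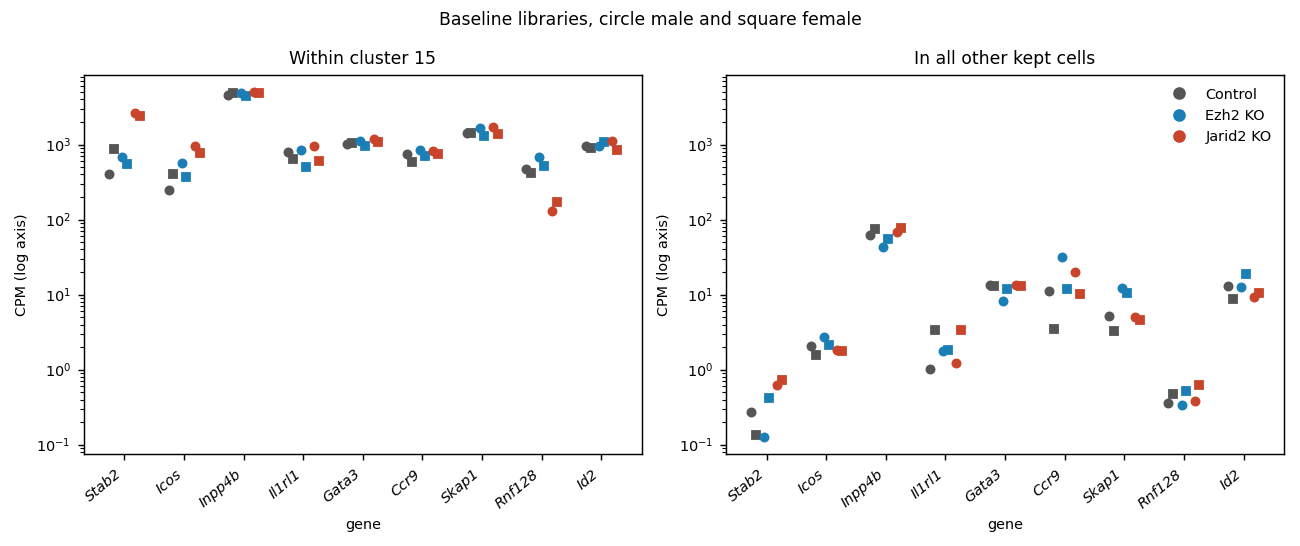
CPM of each gene in the 6 baseline libraries within cluster 15 (left) and in all other kept cells (right), on a shared log axis, with each point 1 library. Within the cluster the Jarid2 KO points lie above the others for Stab2 (2667 and 2389 CPM) and Icos, below them for Rnf128 (129 and 170.4 CPM), and among or near them for the other genes.

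The genes differed in how much of their RNA lay in cluster 15. For Stab2 the cluster held 82.7 and 91.8% of the gene's UMIs in the Controls, 94.2 and 76.2% for Ezh2 KO and 97.9 and 97.7% for Jarid2 KO. Rnf128 was similarly restricted, at 59.6 to 86.1% over the 6 libraries. Icos went from 28.5 and 30.5% in Control and 38.8 and 29.5% in Ezh2 KO to 85.2 and 84.9% in Jarid2 KO, and Skap1 from 47.6 and 41.7% and 29.7 and 23.3% to 79.1 and 80.1%. Most UMIs of Gata3, Inpp4b, Ccr9 and Id2 lay outside the cluster in all Control and Ezh2 KO libraries.

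Other cells accounted for much of the remaining RNA. Il1rl1 was also in an Erythroid-like cluster (cluster 16), at 51.7 and 45.3 CPM in Control, 64.2 and 68.4 CPM in Ezh2 KO and 37.2 and 37.3 CPM in Jarid2 KO, so that 18.7 and 63.1% of the Control UMIs of Il1rl1 lay there. The Jarid2 KO libraries were the lowest in that cluster. The small T and NK-like cluster 23 (208 cells) had the next highest mean CPM after cluster 15 for Ccr9, Skap1 and Gata3, with Ccr9 at 117 to 257 CPM over the 6 libraries. On average over the libraries, the largest share of Ccr9 UMIs lay in a Lymphoid-primed-like cluster (cluster 6), marked by Dntt and Flt3, where it stood at 80.6 and 27.2 CPM in the male and female Control, 216 and 123 CPM in Ezh2 KO and 169.6 and 96.3 CPM in Jarid2 KO. Id2 was at 886 to 1216 CPM in a Dendritic-like cluster (cluster 22) of all 6 libraries. Gata3 and Inpp4b were also found in stem cell (HSC-like) clusters. In cluster 7 Gata3 stood at 29.9 to 37.7 CPM and Inpp4b at 100.1 to 143 CPM.

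**Figure D4:**
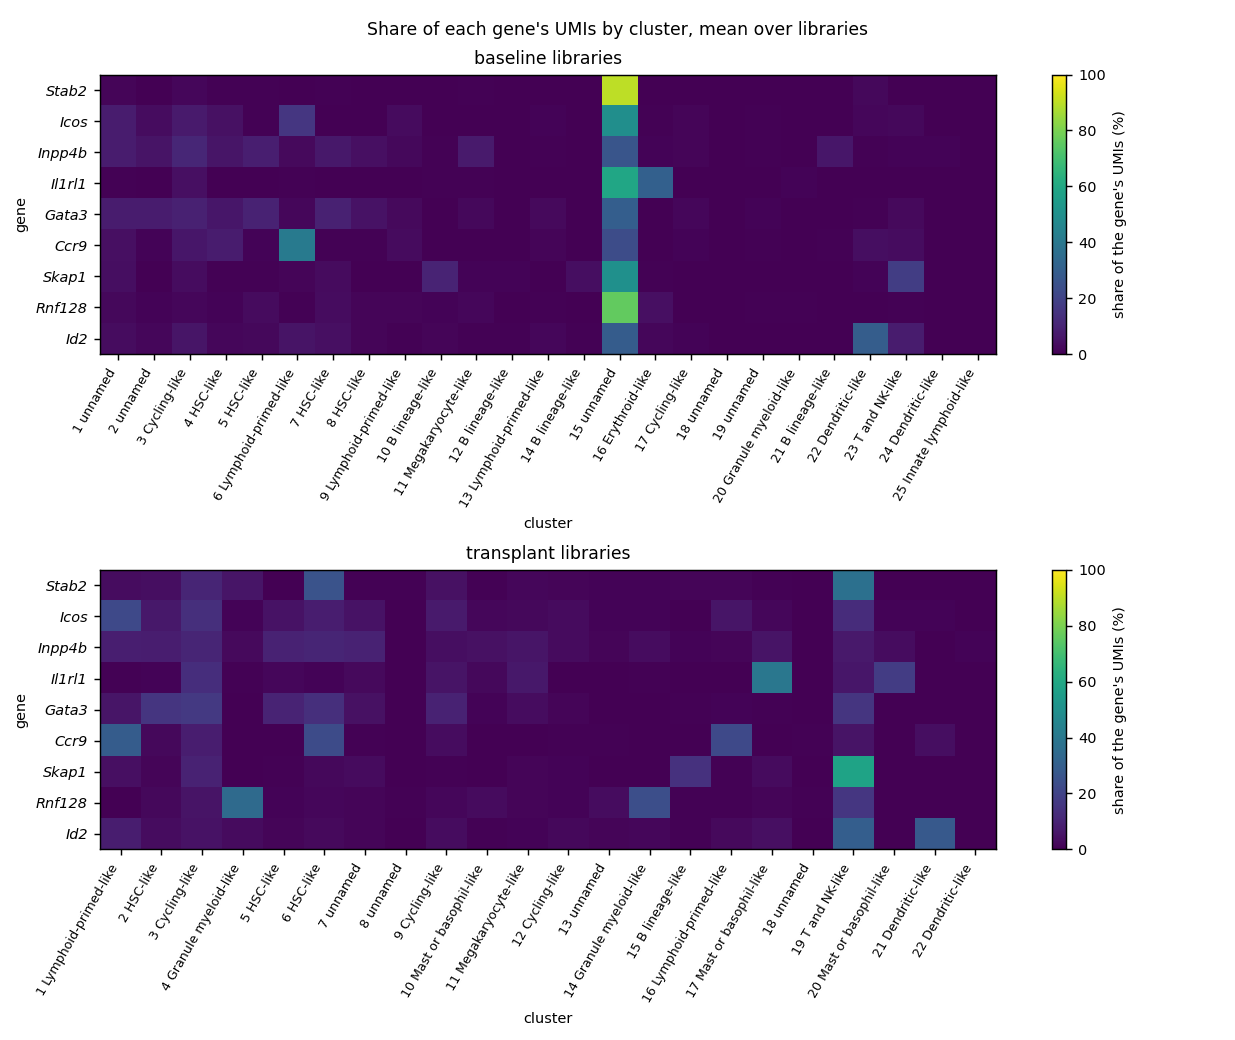
Share of each gene's UMIs (percent, colour) in each cluster, as the mean over the 6 baseline libraries (top) and over the 5 transplant libraries (bottom). At baseline cluster 15 is the brightest square for Stab2 and Rnf128, Il1rl1 is split between clusters 15 and 16, and Ccr9 is brightest in cluster 6. After transplantation the brightest squares of the 9 genes fall in several clusters.

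Surface protein placed the genes in different parts of the KSL gate. In a stem cell gate (CD150 high, CD48 low, CD135 not high, high and low being above the upper and below the lower tercile of each library), Inpp4b stood at 102 to 127 CPM and Gata3 at 19.6 to 25.9 CPM over the 6 libraries, with the genotypes overlapping. Stab2 was at most 0.962 CPM there. In the CD135-high, CD150-low (MPP4) gate Ccr9 stood at 27.1 and 7.96 CPM in Control, 86.2 and 29.9 CPM in Ezh2 KO and 48.6 and 27.2 CPM in Jarid2 KO. In the CD150-high, CD48-high (MPP2) gate Stab2 stood at 1.46 and 0.563 CPM in Control, 3.9 and 1.99 CPM in Ezh2 KO and 208 and 69.6 CPM in Jarid2 KO. Co-detecting cells made up 5.71 and 2.43% of that gate in Control, 0.72 and 2.51% for Ezh2 KO and 21.1 and 13.7% for Jarid2 KO, so Stab2 in a surface gate and Stab2 in co-detecting cells are not separate findings.

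**Figure D5:**
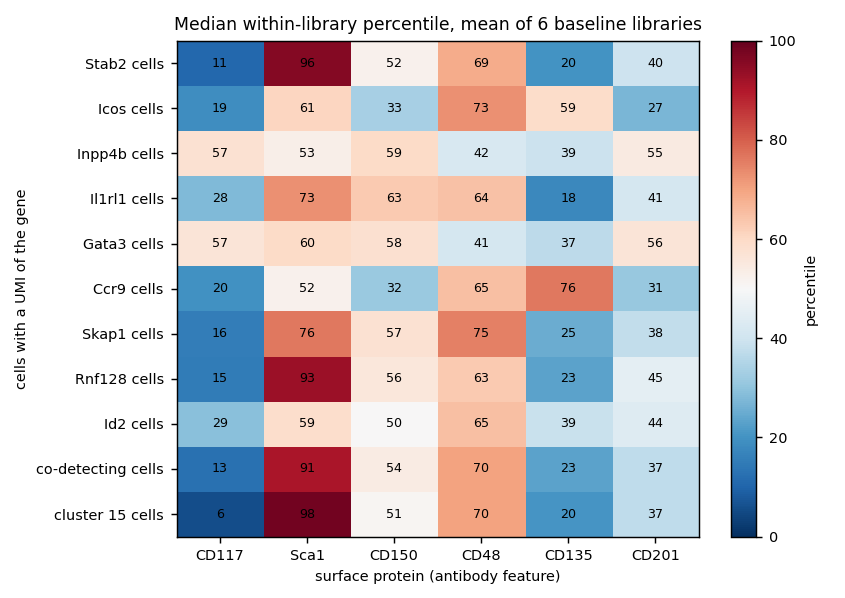
Median within-library percentile of 6 surface proteins in cells with a UMI of each gene, in co-detecting cells and in cluster 15 cells, as the mean over the 6 baseline libraries. Stab2, Skap1 and Rnf128 cells are low in CD117 and high in Sca1 like the cluster 15 cells, and the Inpp4b and Gata3 cells lie between 37.0 and 59.7 for every protein.

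Ezh2 KO against Control at baseline was tested with edgeR's quasi-likelihood test on summed UMIs, with sex as a term and a false discovery rate (FDR) of 0.05 over all genes tested. It shares its Controls with the contrast that chose the genes. Of the 9 genes, 3 were called, against 3.62% of all 18196 genes. Ccr9 rose by 1.5 (SE 0.25, FDR 0.0469) on the log2 scale and Skap1 by 1.08 (SE 0.17, FDR 0.0414), and Inpp4b changed by -0.32 (SE 0.04, FDR 0.0316). The female Ezh2 KO library of Ccr9 lay at the level of the male Control. For Skap1 and Inpp4b the Ezh2 KO and Control libraries did not overlap. The same was so for Icos, Stab2 and Gata3, which were not called, so nothing is read from that separation. Icos was not called (0.60, SE 0.15, FDR 0.0884), nor were Id2 (0.56, SE 0.25, FDR 0.25), Stab2 (0.36, SE 0.14, FDR 0.211), Rnf128 (0.53, SE 0.35, FDR 0.423), Gata3 (-0.26, SE 0.11, FDR 0.233) and Il1rl1 (-0.08, SE 0.21, FDR 0.849). Ccr9 missed the threshold at a minimum of 10 CPM (FDR 0.0517). Over all 18196 genes, calls fell from 658 to 25 without the sex term. Calls over all genes were also fewer with any 1 library left out. None of the 3 calls held without the sex term, and the count fell to 0 without the female Control (replicate 2), without the male Ezh2 KO (replicate 1) or without the female Ezh2 KO (replicate 2). Inpp4b also lost its call without the male Control (-0.30, FDR 0.093) and without the female Jarid2 KO library (-0.32, FDR 0.0578).

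These differences were also called without cluster 15, which was picked by co-detection that counts Skap1. Without its cells, a comparison decided on once they were known, the edgeR changes in Ezh2 KO were 1.66 for Ccr9 (FDR 0.0235), 1.49 for Skap1 (FDR 0.0224) and -0.43 for Inpp4b (FDR 0.0274). Skap1 was higher in Ezh2 KO in B lineage-like cells (cluster 10), at 43.2 and 46.9 CPM against 16.5 and 15.3 in Control and 10.5 and 3.68 in Jarid2 KO, and in the B lineage-like cluster 14 at 36.1 and 41.7 CPM against 16.8 and 10.2 and 9.9 and 6.0. In both clusters the Ezh2 KO libraries were clear of all others. Cluster 10 itself made up 3.23 and 1.07% of Control, 8.64 and 4.74% of Ezh2 KO and 1.59 and 1.46% of Jarid2 KO cells. Between Control and Ezh2 KO the share of B lineage-like cells moved with the library total of Skap1, and its part in the result was not tested. The Jarid2 KO share was lower than the Control share in males (1.59 against 3.23%) and higher in females (1.46 against 1.07%). For Ccr9, cluster 6 made up 10.0 and 4.93% of Control, 12 and 5.84% of Ezh2 KO and 6.84 and 6.21% of Jarid2 KO cells, higher in the male library of each genotype.

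After transplantation the levels were low for several genes. Stab2 had 1 UMI in the Control library (0.0148 CPM, exact 95% Poisson interval 0.000375 to 0.0825 CPM), 0.305 and 0.0622 CPM in Ezh2 KO and 0.379 and 0.292 CPM in Jarid2 KO. No change in Stab2 was called, and with 1 UMI in the Control no fold is given. Skap1 stood at 0.903 CPM in Control, 2.15 and 1.7 CPM in Ezh2 KO, 1.46 and 2.04 CPM in Jarid2 KO, and Id2 at 12.3, 12.9 and 16.7 and 18.6 and 21.8 CPM. Il1rl1 went the other way, at 3.49 CPM in the Control, 3.06 and 2.65 CPM in Ezh2 KO and 2.2 and 2.07 CPM in Jarid2 KO. The Jarid2 KO libraries were the lowest for Il1rl1, where at baseline they had been the highest. Rnf128 was at most 0.691 CPM and Inpp4b ran from 4.34 to 5.95 CPM.

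In transplant Jarid2 KO against Control, 1 of the 9 genes was called, against 0.369% of 15736 genes. Ccr9 stood at 1.61 CPM in the Control and 7.82 and 7.88 CPM in Jarid2 KO, and rose by 2.23 (SE 0.15, FDR 0.0103) by edgeR. The same contrast for Il1rl1 was -0.76 (SE 0.20, FDR 0.295), for Id2 0.66 (SE 0.16, FDR 0.24) and for Gata3 -0.29 (SE 0.13, FDR 0.636), none called. The single Control has no spread of its own, so the test takes the spread from the other 4 libraries.

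In transplant Ezh2 KO against Control, 3 of the 9 were called, against 4.95% of all genes. Ccr9 stood at 21.1 and 21.6 CPM in Ezh2 KO and rose by 3.64 (SE 0.15, FDR 0.000348). Icos stood at 1.3 CPM in Control and 4.03 and 3.88 CPM in Ezh2 KO, a rise of 1.52 (SE 0.22, FDR 0.0152). Gata3 fell from 7.49 CPM to 4.5 and 4.41 CPM, a change of -0.83 (SE 0.13, FDR 0.0191). The share of barcodes over the limit of 10% mitochondrial UMIs also moved with genotype, from 43.4% in the Control to 36.6 and 37.4% with Jarid2 KO donors and 25.7 and 27.4% with Ezh2 KO donors. With a stricter cell filter (at most 5% mitochondrial UMIs, at least 3000 UMIs and 1000 genes) the 3 genes were again called by edgeR, Ccr9 at 3.17 (FDR 0.00136), Icos at 1.27 (FDR 0.0478) and Gata3 at -1.04 (FDR 0.0468). Among male cells only, where the sex of the donor cells no longer moved with genotype, the edgeR changes were 3.86 for Ccr9 (FDR 0.0018), 1.65 for Icos (FDR 0.0489) and -0.81 for Gata3 (FDR 0.0677). The call for Gata3 was also lost without Ezh2 KO replicate 2 (-0.79, FDR 0.060).

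Between the transplant knockouts the same 3 genes were called, against 12.3% of all genes, and the contrast shares libraries with the previous ones. Jarid2 KO was lower than Ezh2 KO in Ccr9 (log2 -1.41, SE 0.10, FDR 0.000691) and Icos (-0.94, SE 0.16, FDR 0.0149) and higher in Gata3 (0.54, SE 0.11, FDR 0.023). Ccr9 and Icos held under every alternative that tested them. Gata3 lost this call among male cells (0.35, FDR 0.15), with the stricter cell filter (0.68, FDR 0.0558), without the leading co-detecting cluster (0.34, FDR 0.101), with the replicate block (0.54, FDR 0.0515) and without any of Ezh2 KO replicate 1, Ezh2 KO replicate 2 or Jarid2 KO replicate 1 (FDR 0.0583 to 0.103). Skap1 was not called over all cells (-0.13, SE 0.21, FDR 0.768) and was called lower in Jarid2 KO by edgeR once the cells of the leading co-detecting cluster were left out (-2.66, FDR 0.00289). Against the Control, Skap1 was not called in Jarid2 KO over all cells (0.89) or without that cluster, where the sign turned (-1.48, FDR 0.294). Outside that cluster Skap1 stood at 0.52 CPM in Control, 1.31 and 1.19 CPM in Ezh2 KO and 0.142 and 0.247 CPM in Jarid2 KO. The Jarid2 KO libraries held 135 and 174 Skap1 UMIs over all cells, and fewer were left. The cluster was picked by co-detection, which counts Skap1 itself, and its share was highest in Jarid2 KO. Leaving it out removes Skap1 UMIs by design, so nothing is read from the call without it.

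Whether the Ezh2 KO change differed between the experiments was tested as an interaction over all 11 libraries, in a fit without the sex term of the baseline test. By edgeR 0 of the 9 genes were called, against 0.365% of 18927 genes. Of the 9, 3 (Icos, Gata3 and Ccr9) had an unadjusted edgeR p under 0.05, as had 1727 of all 18927 genes. Nothing is read from that count. DESeq2 also called 0. The difference, transplant minus baseline, was 2.16 (SE 0.91, FDR 0.529) for Ccr9, 0.91 (SE 0.34, FDR 0.44) for Icos and -0.57 (SE 0.17, FDR 0.304) for Gata3 on the log2 scale. When sex was entered for the 6 baseline libraries, an alternative chosen later, edgeR again called 0, with 2.15 for Ccr9 (FDR 0.0621), 0.93 for Icos (FDR 0.218) and -0.57 for Gata3 (FDR 0.213). A call for Icos or Gata3 in 1 experiment and not in the other was therefore not shown to be a difference between them.

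The transplant cells of these genes did not gather in 1 cluster. The cluster with most co-detecting cells, cluster 19, was T and NK-like (282 cells) and took 0.666% of Control, 0.894 and 0.852% of Ezh2 KO and 1.36 and 1.57% of Jarid2 KO cells. Jarid2 KO libraries had the highest shares. In it Skap1 stood at 98.6, 252 and 151 and 232 and 302 CPM in the same order, and Id2 at 872, 1058 and 1383 and 1079 and 1176 CPM. It differed from baseline cluster 15 in its markers, with Ncr1 in 3.4% to 72.2% and Klrb1c in 6.9% to 68.4% of its cells over the libraries, where both were at 0 in cluster 15. At the finer Leiden resolution 2, cluster 15 stayed whole but cluster 19 split into clusters of 158 and 124 of its cells. The larger passed for the T and NK list, led by NK cell genes such as Klra8 and Ncr1, and held 53 co-detecting cells. The smaller passed for the innate lymphoid list, with Bcl11b, Rora and Tcf7 as well as the T cell genes Trbc1 and Trat1 among its leading genes. It held 62 co-detecting cells and 56% of the transplant Stab2 UMIs, so the T and NK-like name of the leading cluster depends on the resolution. Il1rl1 lay in a Mast or basophil-like cluster (cluster 17), which held 34.7 to 45.8% of its UMIs in the 5 libraries. Ccr9 lay in Lymphoid-primed-like clusters. In cluster 1 it stood at 8.43 CPM in Control, 58.1 and 52.7 CPM in Ezh2 KO and 26.3 and 31.4 CPM in Jarid2 KO, lowest in the Control and highest in Ezh2 KO. Cluster 16, where Ccr9 was at 374 and 416 CPM in Ezh2 KO, made up 4.59 and 4.72% of the Ezh2 KO cells and at most 0.119% of the other libraries, and it held 44.4 and 52% of the Ccr9 UMIs of the Ezh2 KO libraries. Icos had its largest average share of UMIs in cluster 1, where it stood at 3.78 CPM in Control, 7.39 and 9.57 CPM in Ezh2 KO and 5.05 and 6.21 CPM in Jarid2 KO. For Gata3, the HSC-like cells fell into different clusters by genotype. Cluster 2 made up 20.3 and 21.7% of the Ezh2 KO libraries and at most 0.355% of the others, and clusters 5 and 6 made up 14.6 and 9.99% of the Control. In Ezh2 KO cluster 5 took 0.244 and 0.699% and cluster 6 1.28 and 1.59%. Gata3 was lower in Ezh2 KO in cluster 19, at 145 and 111 CPM against 269 in Control. It was also lower in the Cycling-like cluster 3, at 3.91 and 5.61 against 11 CPM. In cluster 5 Gata3 was higher, at 36.5 and 19.4 against 14 CPM. Those 2 values rest on few cells, 0.244% of 6149 and 0.699% of 5867. None of these differences was tested. The part of these shifts in cell makeup in the Ccr9, Icos and Gata3 calls was not tested.

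Genes that act with these 9 were followed in a list of 32 partners, chosen with earlier results of these data known. It holds the IL-33 receptor chain Il1rap and its signalling adaptors, the Icos ligand Icosl and relatives of Icos, the Skap1 partners Fyb, Lcp2 and Fyn, the Ccr9 ligand Ccl25, the Id proteins and their E-protein targets, and relatives of Inpp4b, Stab2 and Rnf128. In baseline Ezh2 KO, 1 of 31 tested partners was higher (Id1, an inhibitor of E proteins like Id2, log2 2.30, edgeR FDR 0.0121) and 2 were lower (Lcp2, -0.43, FDR 0.0456, and Irak4, -0.27, FDR 0.0482), against 3.62% of all genes called. The median change of the list was 0.013, against -0.0038 over all genes. In transplant Ezh2 KO, where 4.95% of all genes were called, 4 of 31 were higher, Id3 by 4.54 (edgeR FDR 0.00135), Ctla4, an inhibitory relative of Icos, by 3.60 (FDR 0.0226), the IL-18 receptor chain Il18r1 by 2.05 (FDR 0.00073) and Id1 by 1.39 (FDR 0.0179). Ctla4 had 3 UMIs in the single Control (0.0444 CPM, against 0.629 and 0.535 CPM in Ezh2 KO), so the size of its change is poorly fixed. Icosl was lower by edgeR (-1.32, FDR 0.0170). The list's median was 0.048, against 0.0073 over all genes. In transplant Jarid2 KO against Control, with 0.369% of all genes called, it was 1 of 31, Il18r1 (1.23, edgeR FDR 0.0202), and the list's median was 0.089 against 0.012.

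The innate-lymphoid program is a list of 28 further genes of that lineage. In baseline Ezh2 KO 2 of 26 tested genes were higher, the IL-7 receptor gene Il7r (log2 1.61, edgeR FDR 0.0409) and the transcription factor Ets1 (0.77, FDR 0.0482), with none lower. With 3.62% of all genes called, a count of 2 is not read as a change of the list. In transplant Ezh2 KO, where 4.95% of all genes were called, 5 of 23 were higher, led by the transcription factor Tox (1.79, edgeR FDR 0.00221) and Il7r (1.71, FDR 0.00529), with Il17rb, Ltb and Ets1 between 1.02 and 1.08, and Bcl11b was lower (-2.77, FDR 0.00702). In transplant Jarid2 KO against Control, with 0.369% of all genes called, it was 1 of 23, the cytokine receptor chain Il2rb (2.12, edgeR FDR 0.0386). The list's medians were 0.16, 0.048 and 0.019 in these comparisons, against -0.0038, 0.0073 and 0.012 over all genes. Il7r and Ets1 are also used by early B lineage cells. The 9 B lineage markers summed to 3087 and 1644 CPM in baseline Ezh2 KO against 1081 and 327.1 CPM in Control. After transplantation they summed to 566 and 435 CPM in Ezh2 KO, 47.8 CPM in Control and 81.9 and 104 CPM in Jarid2 KO, and the B lineage-like cluster 15 of that experiment made up 6.07 and 4.4% of Ezh2 KO and at most 0.735% of the other libraries. Their part in these calls was not tested. Between the Ezh2 KO changes of the experiments, the interaction fit called Tox (1.79, edgeR FDR 0.00474) and Bcl11b (-2.68, FDR 0.0161). The transplant side of that fit rests on a single Control, and donor sex moved with its Ezh2 KO contrast. The counting software also differed between the experiments, so these calls carry those limits.

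Genes whose lower coordinate lay within 250 kb of the lower coordinate of a member of the 9 were followed as neighbours. Distances given are between these coordinates, whatever the strand, and are not distances between transcript starts or gene ends. At baseline 1 of 38 tested neighbours was called in Ezh2 KO against Control, with 3.62% of all genes called, Hoxb7 near Skap1 (log2 2.12, edgeR FDR 0.0417). In transplant Jarid2 KO against Control, where 0.369% of all genes were called, it was 1 of 33, Il18r1, 61 kb from Il1rl1. In transplant Ezh2 KO 3 of 33 were higher and 5 lower, against 4.95% of all genes called, and the 5 lower ones share 1 locus. Those higher were Il18r1, Ctla4 (52 kb from Icos, with 3 UMIs in the Control) and Lztfl1 (73 kb from Ccr9, 0.70, edgeR FDR 0.0139). All 5 lower ones were genes of the Hoxb cluster near Skap1, Hoxb2 (-4.10), Hoxb3os (-4.08), Hoxb5os (-3.41), Hoxb6 (-2.25) and Hoxb5 (-2.22), with an edgeR FDR of 0.00035 to 0.0397, while Skap1 itself was not called. Stab2 overlaps the noncoding gene Gm16271, and the strand rule of the counting is not given, so a read from the stretch they share could count for either, and the values of both carry that limit. The same holds for Gata3 with 4930412O13Rik and 9230102O04Rik and for Ccr9 with Gm17021. Gm16271 stood at 0.250 and 0.183 CPM in baseline Control, 0.380 and 0.175 CPM in Ezh2 KO and 3.26 and 2.69 CPM in Jarid2 KO, and at least 85.0% of its UMIs lay in cluster 15 in each of these libraries. The neighbour 1700113H08Rik, 217 kb from Stab2 between lower coordinates, stood at 2.82 and 1.23, 1.60 and 0.965, and 10.3 and 8.75 CPM in the same order. Stab2 is on the minus strand, so its transcript starts at its upper coordinate. Both were highest in the libraries that were highest for Stab2.

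The genes most like the co-detecting cells, ranked by the lowest ratio of CPM + 1 in co-detecting cells to CPM + 1 in other cells among the 6 baseline libraries, included Bcl11b (lowest ratio 76.9), Il2ra (38.2), Themis (33.8), Trbc1 (31.7), Cd226, Tcrg-C4, Arg1, Alox5 and Cxcr6 (21.3). Bcl11b, Il2ra and Cxcr6 are on the innate lymphoid marker list, and Themis and Trbc1 on the T and NK list. The cells were selected on Icos, Il1rl1, Gata3 and Skap1. With at least 3 of the 4 genes required, Themis and Trbc1 left the 10 highest, and Cysltr1 (lowest ratio 76.0) and Pparg (46.0) entered. Among genes with an established symbol and a mean of at least 1 CPM, Cxcr6 was the most like Stab2 in level across the 11 libraries. Cxcr6 is a chemokine receptor gene 39 kb from Ccr9 between lower coordinates. Its Pearson correlation with Stab2 was 0.98 on log2(CPM + 1) values centred within each experiment. Genes with a Gm number or a Rik name, such as Gm16271 and 1700113H08Rik, were not ranked. The 11 points share the contrast that chose Stab2, so the coefficient is a description. Within the baseline libraries Cxcr6 stood at 1.62 and 1.39 CPM in Control, 1.84 and 1.96 CPM in Ezh2 KO and 4.27 and 4.45 CPM in Jarid2 KO.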

How the data were processed

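UMI counts per gene and cell were deposited by the authors, 11 gene-expression matrices, with counts of 6 antibodies in the baseline matrices. Counting used Cell Ranger 7.2.0 at baseline and 6.1.2 after transplantation, per the file headers. The submitters' processing notes name Cell Ranger 3.1.0 and builds mm10 and mm39, and no source used here gives strand and intron rules. Cells with at least 1000 UMIs, at least 500 genes and at most 10% mitochondrial UMIs were kept. Scrublet's own threshold marked 0 to 2.05% of cells per library (under 0.5% in 9 of 11), so the highest scores were removed at 0.8% per 1000 cells (6.13% to 8.30% of cells). Counts were summed per library, and CPM scales to 1000000 UMIs of the cells named. Tests used edgeR 4.0.16 (TMM, quasi-likelihood, Benjamini-Hochberg over all genes tested, FDR 0.05), with all genotypes of an experiment in 1 fit and sex as a term at baseline. The sex term rests on the labels: male minus female deviations of the genotypes correlated at 0.52, 0.66 and 0.45 over genes. In transplant libraries equal replicate numbers share only a number. Clusters came from scanpy 1.11.5 (Leiden resolution 1, 2000 variable genes, the 9 genes left out) and took a name from the marker lists where 3 or more markers passed a fold of 1.5 and were found in 10% of cells. Where several lists passed, the one with the highest median fold gave the name, except that baseline cluster 15 was left unnamed by hand. Surface percentiles rank centred log ratios within a library. Named genes are the 9, the called genes of fixed lists (up to 4 per comparison, more where a count is small), called neighbours within 250 kb, and the 10 genes most like the co-detecting cells, of which 1 is not reported here. On simulated baseline counts, 50 genes each were changed by 1, 2, 3 and 4 on the log2 scale. The test recovered 45, 49, 50 and 50 of them, with 30 false calls of 18196 genes. On simulated transplant counts it recovered 38, 49, 50 and 50, with 25 false calls of 15736 genes. In both, false calls were a larger share of all calls than the FDR of 0.05. Calls near the threshold carry that limit. The 9 genes and the lists were chosen with earlier results of these data known.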

Additional observations from a re-analysis of the deposited data

How the results depend on the processing

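No value that was called under either setting changed sign. Among single genes, 278 values under the alternatives that keep all libraries kept their sign and their side of the threshold, 8 became called, 9 lost their call and 6 changed sign, called in neither fit. Without the main co-detecting cluster these were Skap1 (0.89 to -1.48) and Rnf128 (0.34 to -0.0040) in transplant Jarid2 KO against Control, Stab2 between the transplant knockouts (0.82 to -0.70) and Inpp4b in the interaction (-0.056 to 0.064). The other two were in the interaction, Skap1 with doublets kept (0.11) and Il1rl1 among male cells (0.014). Among values with 1 library left out, 232 stayed, 2 became called, 15 lost their call and 12 changed sign, called in neither fit. These ran, over the libraries left out, for Rnf128 in transplant Jarid2 KO against Control from -0.33 to 0.80, Skap1 in transplant Jarid2 KO against Ezh2 KO from -0.31 to 0.094, Il1rl1 in baseline Ezh2 KO against Control from -0.43 to 0.24, Inpp4b in the interaction from -0.20 to 0.066, Skap1 in the interaction from -0.44 to 0.29 and Il1rl1 in the interaction from -0.53 to 0.0024. The count of genes called in baseline Ezh2 KO against Control was 0 without the sex term (no replicate block). In that fit 25 of all 18196 genes were called, against 658 in the main fit. Some of the 9 genes also lost their call with 1 library left out, where calls over all genes were fewer as well. With 1 library left out, transplant Ezh2 KO against Control and Jarid2 KO against Ezh2 KO each ran from 2 to 3, transplant Jarid2 KO against Control stayed at 1 and the interaction at 0. At a minimum of 10 CPM, 2 of the 9 genes were tested in the transplant libraries and 1 was called in each of Ezh2 KO against Control and Jarid2 KO against Ezh2 KO. With the replicate number as a block, the transplant knockouts differed in 3 genes, with Id2 called (0.49, edgeR FDR 0.0491) and Gata3 not (0.54, FDR 0.0515). Same-numbered transplant libraries did not deviate together (correlation -0.057). DESeq2 called Icos in baseline Ezh2 KO (0.60, adjusted p 0.0421) and Id2 between the transplant knockouts (0.48, adjusted p 0.0250). Ccr9 in baseline Ezh2 KO missed the threshold at a minimum of 10 CPM (edgeR FDR 0.0517). Alternatives that leave out the main co-detecting cluster, and the sex term in the interaction, were chosen after seeing the data. Without that cluster 1 gene, not 8, was higher in both baseline Jarid2 KO libraries, where 15.2% of all genes were, and against the Control of the same sex it was 5, where 26.8% of all genes were.

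The mean share of co-detecting cells was 1.53% in baseline Control, 2.11% in baseline Ezh2 KO, 4.66% in baseline Jarid2 KO, 0.827% in transplant Control, 0.993% in transplant Ezh2 KO and 1.11% in transplant Jarid2 KO. With at least 3 of the 4 genes required it was 0.79% in baseline Control, 0.938% in baseline Ezh2 KO, 3.66% in baseline Jarid2 KO, 0.138% in transplant Control, 0.0736% in transplant Ezh2 KO and 0.238% in transplant Jarid2 KO, and with at least 3 of the 9 genes 2.28% in baseline Control, 3.39% in baseline Ezh2 KO, 5.76% in baseline Jarid2 KO, 0.712% in transplant Control, 1.46% in transplant Ezh2 KO and 1.45% in transplant Jarid2 KO. Thinned to 5000 UMIs it was 0.338% in baseline Control, 0.557% in baseline Ezh2 KO, 1.23% in baseline Jarid2 KO, 0.295% in transplant Control, 0.255% in transplant Ezh2 KO and 0.563% in transplant Jarid2 KO, and thinned to 3000 UMIs 0.833% in baseline Control, 1.01% in baseline Ezh2 KO, 3.48% in baseline Jarid2 KO, 0.238% in transplant Control, 0.24% in transplant Ezh2 KO and 0.567% in transplant Jarid2 KO. With doublets kept the baseline Ezh2 KO share was 2.38%. Baseline Jarid2 KO was highest under each of these definitions. The share of transplant co-detecting cells in their leading cluster was 42.5%. At Leiden resolution 2 it was 23.1%, where cluster 19 is split and the part with 124 of its cells leads. Depth limits Stab2 after transplantation, at 1 to 35 UMIs per library.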

Other observations

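A small baseline cluster of T and NK-like cells (cluster 23, 208 cells) carried Skap1 and Id2 at levels that overlapped between genotypes. Skap1, an adaptor of antigen-receptor signalling, stood there at 1091 and 858 CPM in Control, 1060.0 and 897 CPM in Ezh2 KO and 1183 and 971 CPM in Jarid2 KO. Id2 stood at 515 and 476, 445 and 757 and 636 and 469 CPM in the same order.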
